A study of Homo sapiens with 12 samples.

Results

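The question was which genes answered the histone deacetylase inhibitor SAHA differently in H1299 and in H1703, 2 established human lines of non-small-cell lung cancer. Genes were included if their level was at least 1 CPM (counts-per-million, the raw count scaled by the library total) in the mean of the DMSO libraries of H1299 and also in that of H1703. Of 58302 genes in the deposited tables, 13457 met this rule, 13456 of them could be tested, and 11760 were protein-coding. SAHA levels played no part in the rule. The rule, the marker levels and the levels at the rule's edge use CPM of the whole library total, whereas the per-library CPM of single genes carry in addition the TMM scaling of the fit. The 12 libraries form 4 groups of 3, since each line was given either SAHA or its DMSO vehicle. The labels describe both lines as epithelial cells of lung, grown unmodified in the same medium, and give 24 h of treatment, a vehicle of 0.1% DMSO and SAHA at 0, 2.5, 10 or 40 µM. They do not say which dose was sequenced or whether both lines had the same one, so a difference between lines and a difference in dose cannot be told apart. Nothing says that the 3 libraries of a group were separate cultures, so p-values measure only the spread between these libraries.

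Histone deacetylases remove acetyl groups from lysines of histones and many other proteins. SAHA (vorinostat) is a hydroxamate that blocks the zinc-dependent members of the family, which raises histone acetylation and changes transcription in both directions. Arrest of the cell cycle with induction of the CDK inhibitor p21 is the best known response of tumour cells to such drugs. Cell lines carry different sets of active and silent genes, and a drug of this kind can reach each of them from a different starting level.

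Library totals ran from 14.4M to 19.4M counts. The share of mitochondrial genes was 1.96% to 2.22% in the DMSO libraries of H1299 and 4.0% to 4.23% in its SAHA libraries, against 5.44% to 6.27% and 8.77% to 10.93% in H1703. Markers of the labelled epithelial type were mixed. Of 8 epithelial markers 6 were higher in H1703 than in H1299 with DMSO, and CLDN4 (2.69 CPM in H1299, 2.46 in H1703) and ESRP1 (0.787 and 0.131 CPM) were not. CDH1, the epithelial cadherin, averaged 87.3 CPM in H1703 with DMSO and had no count in the 3 H1299 DMSO libraries, and EPCAM averaged 2.66 and 0.253 CPM. The simple epithelial keratins KRT8 (227 CPM in H1299, 1160 in H1703) and KRT18 (414 and 652 CPM) were present in both lines. VIM, the mesenchymal intermediate filament, was present in both as well, at 3520 and 947 CPM. ZEB1 was also higher in H1299 (30.8 and 15.9 CPM), while the mesenchymal markers CDH2 (61.9 and 117 CPM), FN1 (59.8 and 447 CPM) and SPARC (1.16 and 4.67 CPM) were higher in H1703. The 7 lymphoid markers summed to at most 1.74 CPM in any library, with MS4A1 at 0 in all 12. Other sums were higher and several moved with SAHA. The 7 myeloid markers summed to 27.2 to 49.9 CPM with DMSO and 27.2 to 30.8 with SAHA in H1299, and to 28.6 to 46.8 and 76.9 to 87.1 in H1703. The 5 endothelial markers went from 1.76 to 2.17 CPM to 16.9 to 23.5 in H1299 and from 0.854 to 1.27 to 6.95 to 8.84 in H1703, mostly KDR. The 5 fibroblast markers went from 1.64 to 2.78 CPM to 40.2 to 55.4 in H1299 and from 59.1 to 69.1 to 99.4 to 112 in H1703, mostly COL1A1 and, in H1703 with SAHA, LUM. The 5 ciliated cell markers went from 9.58 to 12.1 CPM to 21 to 25.4 in H1299 and from 14.4 to 15.2 to 21.9 to 23.8 in H1703. The part of such cells in the results was not tested. As these are bulk libraries, fewer cells of a kind and less RNA per cell cannot be told apart.

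The SAHA effects of the 2 lines resembled each other in outline and differed in many genes. An effect is the log2 fold change of SAHA against DMSO, and the line difference is the effect in H1703 minus the effect in H1299, tested as an interaction in 1 fit over the 12 libraries. In H1299, 4003 of the 13456 genes rose (29.7%, against 35.7% of all 19105 genes tested) and 4536 fell (33.7%, against 25.7%). In H1703, 3833 rose (28.5%, against 33.3%) and 5069 fell (37.7%, against 30.3%). The effects correlated across genes with Pearson's r = 0.67 and a Spearman rank correlation of 0.67 over 13456 genes, which are not independent replicates. The line difference passed the test (edgeR, Benjamini-Hochberg adjusted p below 0.05) in 5027 genes (37.4%), against 34.9% of all genes tested and 29.1% of tested genes outside the rule. The effect was higher in H1703 in 2051 of them (15.2%, against 13.7% of all genes tested) and lower in 2976 (22.1%, against 21.2%).

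Large line differences leaned to one side. With a difference of at least 2-fold, 594 genes were higher in H1703 (4.41%, against 6.09% of all genes tested) and 1362 lower (10.1%, against 12.7%). With at least 4-fold, 90 were higher (0.669%, against 2.84%) and 365 lower (2.71%, against 6.64%). The difference had a 5th percentile of −1.60 and a 95th of 1.01 on the log2 scale, with a median SE per gene of 0.19. The effects spread slightly more widely in H1703, with an SD over genes of 1.07 against 0.95 in H1299.

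**Figure D1:**
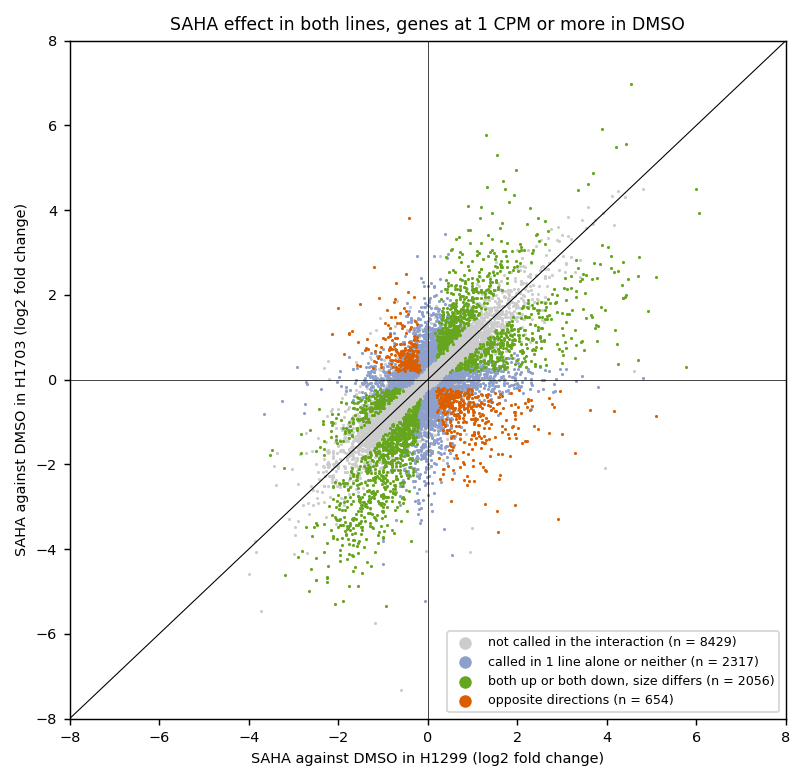
Log2 fold change of SAHA against DMSO in H1299 (horizontal) and in H1703 (vertical), 1 point per gene at 1 CPM or more in DMSO, with the line of equal effect. Grey points did not pass the test of the line difference, green points moved the same way in both lines by different amounts (2056 genes), orange points moved in opposite directions (654 genes) and blue points were called in 1 line alone or in neither.

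A difference between effects can arise in several ways, so the 5027 genes were sorted by what each line did. The commonest form was a change in 1 line alone, in 2265 genes (45.1% of them): 563 rose and 738 fell in H1703 alone, and 535 rose and 429 fell in H1299 alone. A change in the same direction but of different size was found in 2056 genes. Of these, 833 fell in both lines and further in H1703, 251 fell in both and further in H1299, 534 rose in both and further in H1703, and 438 rose in both and further in H1299. The count of 251 fell to 152 when the first DMSO library of H1703 was left out. Opposite movement, with both effects called, was found in 654 genes (13% of the 5027): 402 rose in H1299 and fell in H1703, and 252 did the reverse. These counts came closer to each other with DESeq2 (344 and 319), with its median-ratio scaling (345 and 313) and with each line fitted alone (334 and 299). The remaining 52 passed the test of the difference with neither effect called, and without the third SAHA library of H1703 they were 32. In the other view, of 5951 genes called in both lines with the same sign, 3482 had the larger effect in H1703.

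Among genes that rose in H1299 and fell in H1703, CLSTN3 had the largest line difference. It encodes the synaptic adhesion protein calsyntenin 3 (ENSG00000139182, chromosome 12, 7129698 to 7158945 in GRCh38). It stood at 22.8, 27.0 and 19.7 CPM in H1299 with DMSO and at 163, 194 and 161 with SAHA. In H1703 it stood at 24.2, 25.6 and 30.4 CPM with DMSO and at 2.26, 3.31 and 2.50 with SAHA. The lines thus began at similar levels, and the SAHA libraries parted to both sides. Lack of overlap with the DMSO libraries was a condition in choosing the leading genes of opposite movement. The effects were 2.90 ± 0.14 and −3.30 ± 0.17 (log2 ± SE, n = 3 libraries per group), a line difference of −6.20 ± 0.22 (edgeR adjusted p = 3.8e-10).

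CD24 and GJA1 began far apart, low in H1299 and high in H1703. CD24, a glycoprotein anchored to the cell surface (ENSG00000272398), had 1.39, 1.42 and 0.623 CPM in H1299 with DMSO and 37.5, 49.9 and 31.2 with SAHA. In H1703 it went from 472, 405 and 420 CPM to 217, 258 and 234, so that H1703 stayed the higher line throughout. Its line difference was −5.98 ± 0.30. Its counts are uncertain because near-identical retrocopies of it exist in the genome. GJA1, the gap junction protein connexin 43, showed the same layout: 1.39, 1.00 and 1.08 CPM rose to 19.3, 21.4 and 21.7 in H1299, and 219, 214 and 217 fell to 133, 119 and 136 in H1703. By the rule that chose GJA1, no SAHA library of either line overlapped that line's DMSO libraries. The line difference for GJA1 was −4.91 ± 0.15 (adjusted p = 1.2e-10). NRCAM, a neuronal cell adhesion molecule, rose 12.3-fold in H1299 and fell 1.65-fold in H1703.

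In other genes of this group the fall in H1703 was the larger part. MMP24, a membrane-bound metalloprotease, fell 12.1-fold in H1703, from 149, 161 and 149 CPM to 13.2, 12.7 and 11.9, and rose 2.96-fold in H1299, from 2.12, 1.54 and 1.98 to 5.02, 6.29 and 5.45. SAMD11 fell 7.77-fold in H1703 and rose 3.88-fold in H1299. MMP24 and SAMD11 each overlap another tested gene (MMP24OS and NOC2L), and the strandedness of the counting is not stated, so their values are uncertain. The same limit holds for PDE3A, CD59, SCARF2, TFPI2, SPC25, PBK, ARPC1B, G0S2, HLA-F, ZNF721, KIF20A, GINS2, RRM2, CCNA2, CCND1, CDKN1B, E2F5 and HLA-B, whose annotated spans also overlap a tested gene. It holds as well for TAP2, PSMB9, PSMB10, ITGA6, TAGLN, CTGF, ICAM1, HK2, SLC16A3, ALDH2, SLC1A3, SYN1, CBX7, PLK3, HDAC2, HDAC7, SIRT2, POLD3, PRIM1, RPA3, TYMS, KRT8, KRT18, VIM and MT-ATP8. ARHGEF16, a guanine nucleotide exchange factor, had effects of 1.54 ± 0.20 in H1299 and −3.11 ± 0.20 in H1703. PDE3A, a phosphodiesterase of cyclic nucleotides, had 3.01 ± 0.20 and −1.29 ± 0.16, and its unscaled mean of 1.001 CPM in H1299 with DMSO lay just inside the rule.

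**Figure D2:**
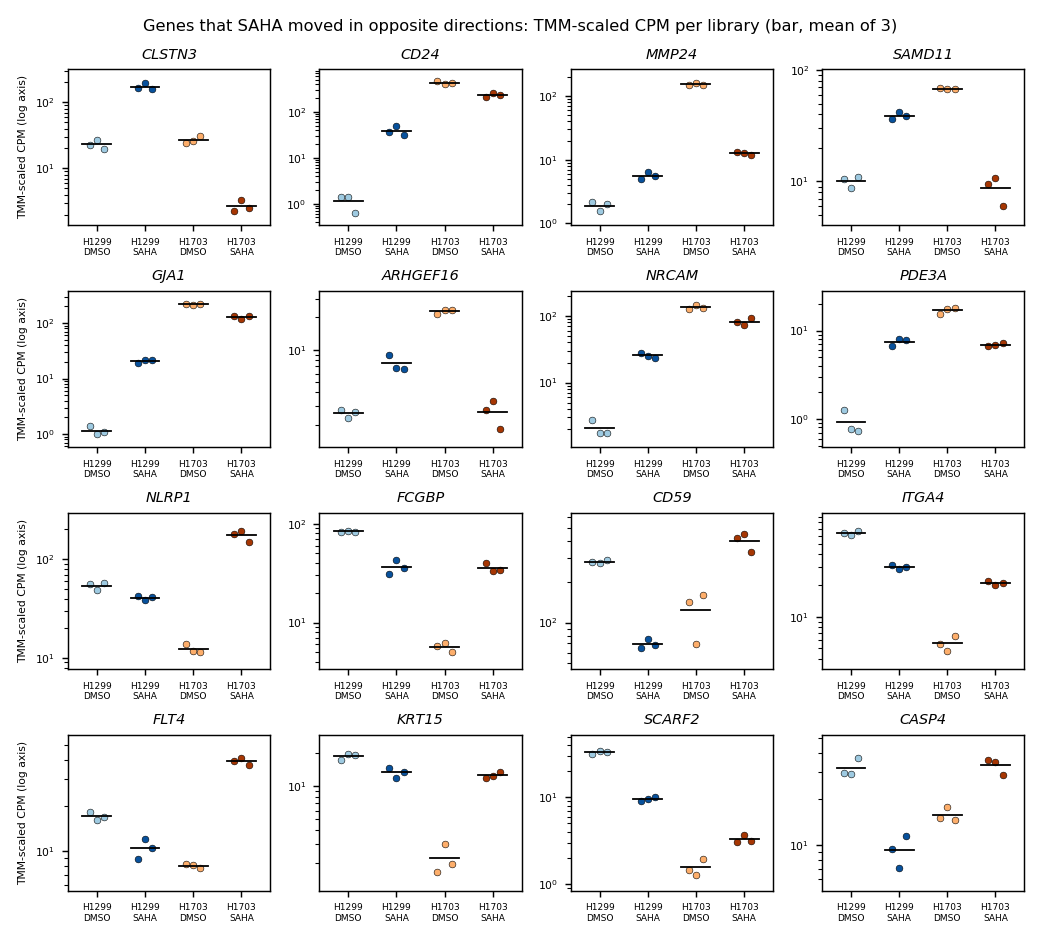
TMM-scaled CPM on a log axis in each of the 12 libraries for the 8 genes with the largest line difference in each orientation of opposite movement, taken from protein-coding genes whose log2 CPM averaged at least 3 and whose SAHA and DMSO libraries did not overlap in either line, with a bar at the mean of 3 libraries. In the upper 8 panels SAHA (dark) lies above DMSO (light) in H1299 and below it in H1703, and in the lower 8 panels the reverse holds. The DMSO levels of CLSTN3 are alike in the lines, while CD24, GJA1 and NRCAM start low in H1299.

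The reverse orientation, down in H1299 and up in H1703, was led by NLRP1, an inflammasome sensor. NLRP1 was at 56.0, 49.1 and 56.9 CPM in H1299 with DMSO and at 42.1, 38.4 and 41.5 with SAHA, a fall of 1.33-fold. In H1703 it rose 14.1-fold, from 14, 11.7 and 11.6 to 180, 195 and 151 CPM, so the order of the lines turned round. The line difference was 4.23 ± 0.16 (adjusted p = 6.6e-10). CASP4, a caspase that senses bacterial lipopolysaccharide inside cells, fell 3.40-fold in H1299 (29.3, 29.1 and 36.8 to 9.38, 7.11 and 11.5 CPM) and rose 2.1-fold in H1703 (15, 17.6 and 14.6 to 35.8, 34.8 and 28.5 CPM).

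CD59, which keeps the complement attack complex off the cell's own membrane, fell from 280, 277 and 288 CPM to 65.0, 76.0 and 68.5 in H1299. In H1703 its DMSO libraries were uneven, at 141, 69.5 and 161 CPM, and the SAHA libraries lay above all of them at 419, 449 and 335. The line difference was 3.71 ± 0.36, with the widest SE of the 8 genes of this orientation. FCGBP, a mucin-like protein that binds the Fc part of IgG, fell 2.30-fold and rose 6.26-fold. ITGA4, the integrin α4 subunit, fell 2.11-fold in H1299 (64.1, 60.6 and 66 to 31.5, 29.0 and 29.9 CPM) and rose 3.81-fold in H1703 (5.49, 4.73 and 6.53 to 22.2, 20.3 and 21.2 CPM). FLT4, a receptor for lymphatic vascular growth factors, had effects of −0.70 ± 0.12 and 2.28 ± 0.12. KRT15, a keratin of basal epithelial cells, had −0.49 ± 0.16 and 2.49 ± 0.19, and the scavenger receptor gene SCARF2 had −1.77 ± 0.13 and 1.10 ± 0.17.

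Genes that rose in both lines could still differ by more than 10 times in their fold. TFPI2, a secreted Kunitz inhibitor of serine proteases (ENSG00000105825, chromosome 7, 93885397 to 93890991), had the strongest such difference in favour of H1703. It rose from 72.8, 70.4 and 73.6 to 174, 183 and 181 CPM in H1299, 2.48-fold. In H1703 it rose 54.5-fold, from 43.7, 47.1 and 49.2 to 2492, 2477 and 2656 CPM. The spread within each group was small beside either change, and the line difference was 4.46 ± 0.10 (adjusted p = 9.4e-12). TFPI2 overlaps the annotated span of GNGT1.

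KIF5C, a kinesin of axonal transport, was abundant in H1299 with DMSO (46.1, 44.6 and 42.1 CPM) and scarce in H1703 (1.72, 1.98 and 2.89 CPM). With SAHA it reached 141, 128 and 119 CPM in H1299 and 87.7, 82.1 and 89.3 in H1703, a rise of 2.92-fold and of 39.4-fold. LAMP3, a lysosomal membrane protein of dendritic cells and type II pneumocytes, rose 2.50-fold and 23.5-fold. SYT11, a synaptotagmin of vesicle trafficking, rose 1.87-fold and 17.3-fold from similar DMSO levels.

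The opposite preference was found in CACNA1G, the pore subunit of a T-type calcium channel. In H1299 it rose 55.0-fold, from 1.21, 0.828 and 1.25 to 57.1, 69.7 and 55.0 CPM, which brought it to the level that H1703 held with DMSO (53.3, 52.4 and 52.8 CPM). In H1703 it rose 1.24-fold, to 66.5, 70.7 and 58.6 CPM (adjusted p = 0.03). MYEOV rose 25.8-fold and 1.39-fold, IGSF3, an immunoglobulin superfamily member, 19.1-fold and 1.29-fold, and ADGRB2, an adhesion G protein-coupled receptor of brain, 18.7-fold and 1.78-fold. Each of these 4 genes was the lower in H1299 under DMSO. The DMSO levels enter the line difference by which the genes were chosen, so the choice itself favours this layout.

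Of the genes that fell in both lines and further in H1703, the largest difference had a size of 6.14 on the log2 scale, in a gene whose log2 CPM averaged less than 3. Among protein-coding genes above that level whose SAHA and DMSO libraries did not overlap in either line, SPC25 had the largest difference. SPC25, a kinetochore subunit of the NDC80 complex, went from 40.0, 40.8 and 42.6 to 14.9, 12.1 and 14.8 CPM in H1299. In H1703 it went from 22.7, 17.3 and 21.1 to 0.666, 0.930 and 0.460 CPM, near the lower limit of measurement. The folds were 2.95 and 29.0 and the line difference −3.30 ± 0.26 (adjusted p = 3.1e-07). NEIL3, a DNA glycosylase of dividing cells, PBK, a mitotic kinase, and HJURP, the chaperone of the centromeric histone, had line differences of −3.10 ± 0.26, −3.10 ± 0.25 and −2.95 ± 0.43.

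Among genes that fell further in H1299, FOSL1, an AP-1 subunit, went from 404, 402 and 422 to 33.4, 34.1 and 42.2 CPM there, and from 24.6, 29.2 and 23.8 to 10.3, 8.08 and 6.44 in H1703. All H1299 SAHA libraries thus remained above the H1703 DMSO libraries. The line difference was 1.84 ± 0.20 (adjusted p = 8.4e-06). It was the widest of this class, and among the genes within the same limits of level and overlap G0S2, an inhibitor of triglyceride lipase (1.54 ± 0.20), ARPC1B, a subunit of the Arp2/3 actin nucleator (1.75 ± 0.37), and KIAA1549L (1.36 ± 0.15) followed it. The receptor kinase AXL also fell further in H1299, 4.45-fold against 2.01-fold.

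**Figure D3:**
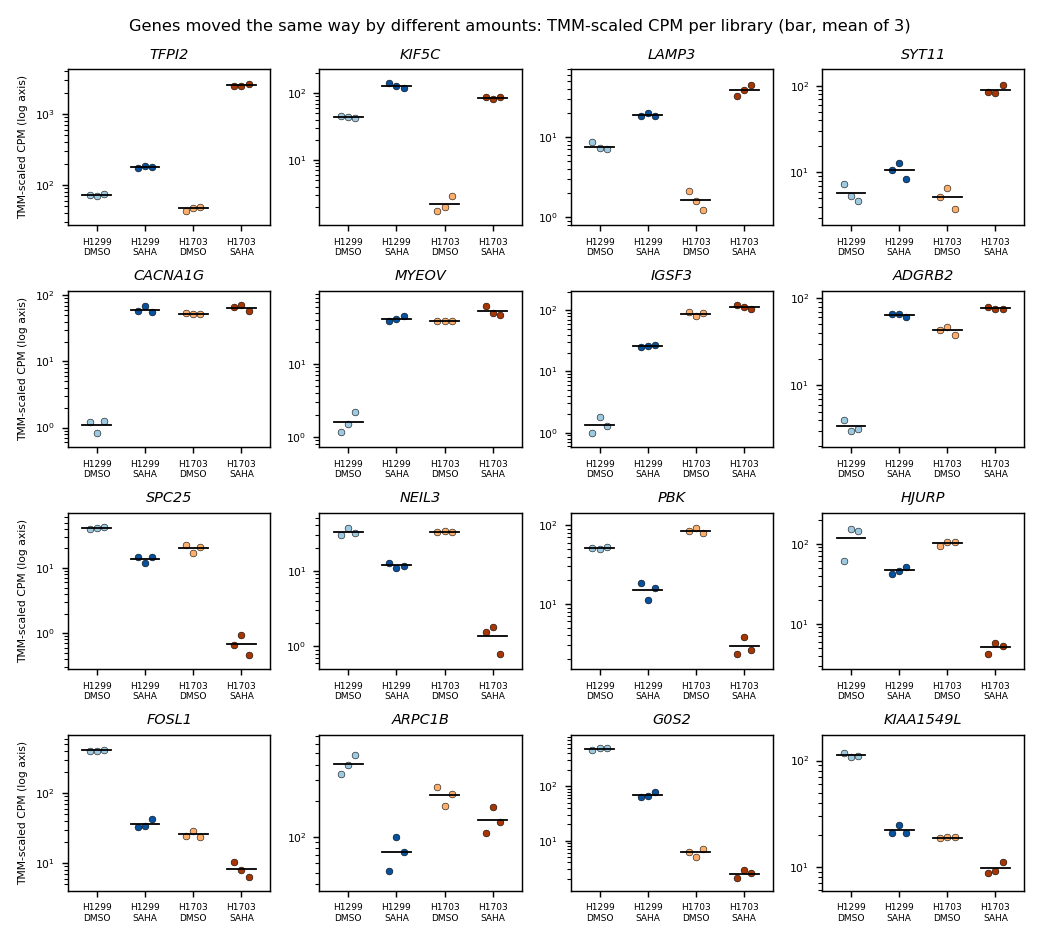
TMM-scaled CPM on a log axis in each library for 16 genes that SAHA moved the same way in both lines by different amounts, 4 per class within the same limits of level and overlap, with a bar at the mean of 3 libraries. Rows from the top show genes that rose further in H1703, rose further in H1299, fell further in H1703 and fell further in H1299. TFPI2 and KIF5C show the steep rise in H1703 and CACNA1G the rise in H1299 to the level H1703 already had.

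Some strong responses were alike in size. HLA-F, a non-classical MHC class I gene, rose 7.04-fold in H1299 and 7.12-fold in H1703, and the 95% interval of its line difference ran from −0.50 to 0.53 on the log2 scale. For SHF, an adaptor protein, the interval ran from −0.48 to 0.49 around rises of 4.56-fold and 4.58-fold, and for AMDHD1, a histidine-degrading enzyme, from −0.47 to 0.47. SUMO3, a ubiquitin-like modifier, fell from 236, 234 and 215 to 55.3, 54.4 and 58.3 CPM in H1299. In H1703 it fell from 115, 115 and 113 to 28.2, 29.0 and 25.9 CPM, with an interval from −0.25 to 0.21. The chromatin protein gene NUCKS1 fell 4.30-fold and 4.08-fold (−0.21 to 0.36). These intervals bound the difference and do not show that it is 0. The zinc finger gene ZNF721 had a wider interval, −0.84 to 0.90.

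Of the 46 gene lists, mitosis had the greatest share of line differences in 1 direction. No list was tested against the share over all genes, which was 15.2% higher and 22.1% lower in H1703. That share applies to the counts of every list as a description. In these counts, higher or lower in H1703 refers to the SAHA effect there against that in H1299, and not to the level. All 34 genes of a mitosis list fell in both lines, against 33.7% of all genes in H1299 and 37.7% in H1703. The median effect of the list was −1.76 in H1299 and −3.63 in H1703. The line difference passed the test in 33 of the 34, each of them lower in H1703, against 22.1% of all genes tested under the rule. Their median difference was −1.85, against −0.06 over all 13456 genes. The exception was CENPE, a kinetochore motor, at −1.13. CCNB2, a mitotic cyclin, had 144, 158 and 152 CPM in H1299 with DMSO and 30.1, 30.9 and 34.7 with SAHA. The H1703 libraries had 111, 110 and 97.9 CPM with DMSO and 3.46, 4.65 and 4.40 with SAHA. The fall was 4.74-fold in H1299 and 25.4-fold in H1703. KIF20A, a kinesin of cytokinesis, fell 4.76-fold and 27.3-fold.

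DNA replication genes followed with 26 of 36 lower and 1 higher in H1703 (median −1.22), against 22.1% and 15.2% over all genes. GINS2, a subunit of the replicative helicase, went from 74.2, 77.8 and 75.8 to 39.1, 41.8 and 48.9 CPM in H1299, 1.75-fold. In H1703 it went from 49.7, 52.7 and 44.5 to 3.73, 4.82 and 3.88 CPM, 11.8-fold. The origin factor MCM10 had effects of −1.12 ± 0.12 and −3.85 ± 0.15, and RRM2, the regulated subunit of ribonucleotide reductase, had a line difference of −2.89. The 1 gene in the other direction was PCNA, the sliding clamp of the replication fork, which fell 2.77-fold in H1299 and 1.71-fold in H1703 (line difference 0.69 ± 0.11). TYMS, POLE, POLD1, POLD3, LIG1, PRIM1, GINS4, RPA2 and RPA3 did not pass.

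Of 25 genes of homologous recombination and the Fanconi pathway, 19 were lower and 1 higher in H1703 (median −1.24). Over all genes the shares were 22.1% and 15.2%. EXO1, an exonuclease of DNA end resection, stood at 32.2, 31.6 and 30.2 CPM in H1299 with DMSO and at 27.1, 26.1 and 30.2 with SAHA, groups that met at 30.2 CPM, and the effect there did not pass (−0.17 ± 0.10, adjusted p = 0.16). In H1703 EXO1 fell 10.4-fold, from 33.6, 33.7 and 32.9 to 2.73, 3.25 and 3.62 CPM. Its line difference of −3.21 ± 0.16 was far outside the spread of the libraries. FANCD2, the central Fanconi protein, fell in both lines (−1.84 ± 0.09 and −3.35 ± 0.11). The gene in the other direction was FANCE, a core complex member, which rose in H1703 alone (0.79 ± 0.11). BRCA2 and PALB2, partners in homologous recombination, had line differences of −0.50 and 0.05 that did not pass.

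The promoters of the mitosis, replication and recombination lists were searched because their members moved together, and those of the ribosomal protein list beside them. The windows were RefSeq promoters in GRCh38.p14, 250 bases before to 50 after a transcription start, and 6 motifs were looked for on both strands: CCAAT (the box bound by NF-Y), TTTGAA (the cell cycle homology region, CHR), TTTCCCGC or TTTGGCGC (E2F), TGANTCA (AP-1), GGGCGG (the GC box) and TATAAA (the TATA box). The first 3 share no bases with each other in the windows shown. CCNB2 and SPC25 are shown as mitosis genes and GINS2 as a replication gene, with CCAAT in capitals in all 3, TTTGAA in capitals in the first 2 and the E2F motif in capitals in GINS2. They were chosen for holding these letters, and the window of MCM10, another replication gene, held 2 CCAAT boxes and 0 E2F motifs.
CCNB2, chr15:59104896-59105195, plus strand: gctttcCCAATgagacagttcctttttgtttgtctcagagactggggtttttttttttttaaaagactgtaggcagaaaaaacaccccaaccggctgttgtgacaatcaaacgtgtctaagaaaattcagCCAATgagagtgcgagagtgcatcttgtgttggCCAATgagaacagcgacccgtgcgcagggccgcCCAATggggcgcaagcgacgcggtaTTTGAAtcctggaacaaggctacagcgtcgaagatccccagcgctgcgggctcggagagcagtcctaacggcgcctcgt
SPC25, chr2:168890381-168890680, minus strand: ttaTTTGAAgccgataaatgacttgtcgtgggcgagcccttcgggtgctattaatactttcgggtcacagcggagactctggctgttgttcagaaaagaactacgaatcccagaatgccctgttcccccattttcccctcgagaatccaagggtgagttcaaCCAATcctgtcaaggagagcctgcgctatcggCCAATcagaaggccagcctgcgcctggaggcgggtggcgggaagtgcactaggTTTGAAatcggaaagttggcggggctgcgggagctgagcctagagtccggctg
GINS2, chr16:85688905-85689204, minus strand: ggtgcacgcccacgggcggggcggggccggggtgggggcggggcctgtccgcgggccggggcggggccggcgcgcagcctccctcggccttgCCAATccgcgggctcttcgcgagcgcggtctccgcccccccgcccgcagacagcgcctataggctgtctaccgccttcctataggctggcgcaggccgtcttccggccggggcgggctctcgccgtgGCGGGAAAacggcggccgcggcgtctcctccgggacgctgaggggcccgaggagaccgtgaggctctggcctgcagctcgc

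CCNB2 held 4 CCAAT boxes and 1 CHR, SPC25 2 and 2, and GINS2 1 CCAAT box and 1 E2F motif, which reads GCGGGAAA on the strand shown. Of the mitosis list, 29 of 34 genes were found in the promoter table, with 35 windows: 80% held CCAAT, 60% TTTGAA and 51.4% both, while 2.86% held the E2F motif. The replication list (31 of 36 genes, 40 windows) had 55%, 2.5% and 2.5%, and 37.5% held the E2F motif. Over all 35116 windows of the table the shares were 34.6%, 15.2% and 5.9%, and 2.27% for E2F, and over the 14553 windows of genes under the rule 34.7%, 10.2%, 4.04% and 3.43%. The mitosis and replication lists thus differed in their letters. The recombination and Fanconi list (22 of 25 genes, 28 windows) had 39.3% for CCAAT, 7.14% for TTTGAA, 3.57% for both and 10.7% for E2F. Whether these letters bear on the line difference was not tested. The ribosomal protein list (23 of 30 genes, 31 windows) had 35.5%, 12.9%, 0% and 0%. The GC box was in 80% of mitosis, 70% of replication and 71.4% of recombination windows, against 67.3% of windows under the rule. The TATA box was in 5.71%, 5% and 0% against 5.96%, and the AP-1 motif in 0%, 2.5% and 0% against 4.99%. A match describes the letters of a window and is not a measured binding site.

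**Figure D4:**
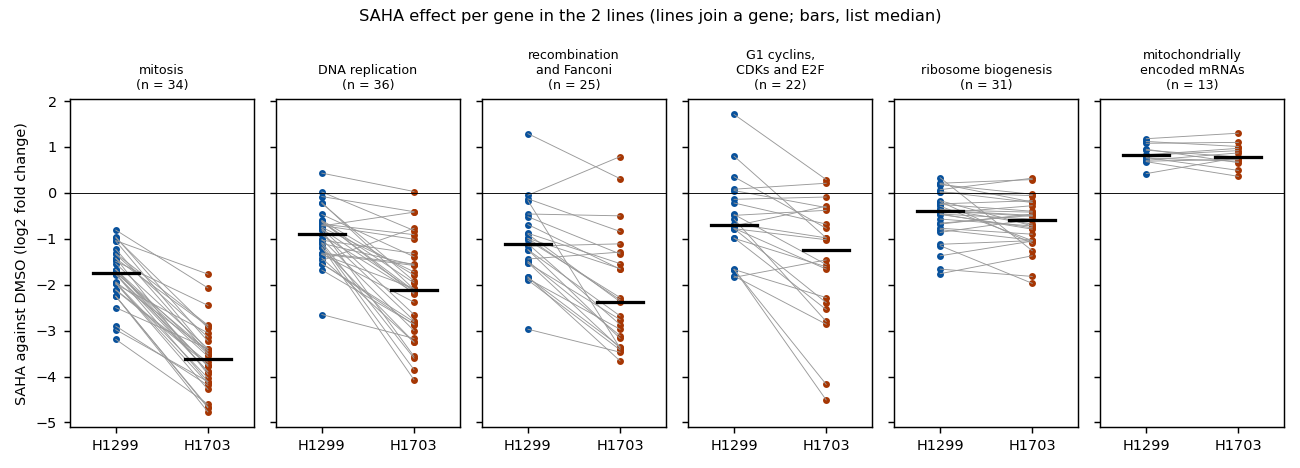
Log2 fold change of SAHA against DMSO in H1299 (blue) and H1703 (brown) for the tested genes of 6 lists, with a line joining the values of a gene and a bar at the list median. The median of the mitosis list drops from −1.76 in H1299 to −3.63 in H1703, while that of the mitochondrially encoded mRNAs is 0.82 and 0.78.

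Regulators of the G1 phase and the CDK inhibitors were less uniform. Of 22 G1 cyclins, kinases and E2F family genes, 12 were lower in H1703 and none higher (median −0.76), against 22.1% and 15.2% over all genes. E2F5 missed the threshold (0.39 ± 0.15, edgeR adjusted p = 0.064) and was called higher with median-ratio or upper-quartile scaling. CCNA2, the cyclin of S phase, fell 3.17-fold in H1299 and 22.8-fold in H1703. CCND1, the G1 cyclin D1, moved in opposite directions: it rose from 352, 382 and 365 to 467, 481 and 448 CPM in H1299 and fell from 471, 485 and 487 to 275, 287 and 283 in H1703. Neither line's groups overlapped (line difference −1.12 ± 0.09).

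CDKN1A, which encodes p21, rose in both lines, 4.33-fold from 88.2, 87.7 and 74.5 to 350, 345 and 390 CPM in H1299 and 3.28-fold from 219, 217 and 231 to 702, 762 and 720 in H1703. Its line difference was small and passed (−0.40 ± 0.12, adjusted p = 0.015). CDKN1A was thus the higher in H1703 under DMSO and under SAHA. CDKN1C, which encodes p57, rose 4.66-fold in H1299 (1.93, 1.24 and 0.905 to 5.86, 6.92 and 6.27 CPM) and fell 2.73-fold in H1703 (10.0, 9.10 and 9.08 to 2.53, 3.08 and 4.73 CPM). CDKN1B, which encodes p27, did the reverse on a smaller scale, with effects of −0.71 ± 0.10 and 0.29 ± 0.10. Of the 6 tested inhibitors, 2 were higher and 3 lower in H1703, against 15.2% and 22.1% over all genes.

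Genes of MHC class I presentation were called higher in H1703 more often than lower. Of 18, 9 were higher and 2 lower (median 0.65), against 15.2% higher and 22.1% lower over all genes. The median effect of the list was −0.44 in H1299 and 0.07 in H1703, so the list as a whole did not rise in H1703. In H1299 7 genes rose and 9 fell, against 29.7% and 33.7% of all genes. In H1703 7 rose and 5 fell, against 28.5% and 37.7%. Of 3 tested MHC class II genes none was higher and 1 was lower, the transcription factor RFX5 (−0.45 ± 0.13), and that call was lost without the first DMSO library of H1703. HLA-B, a classical heavy chain, rose from 126, 126 and 123 to 195, 212 and 200 CPM in H1299 and from 23.3, 24.4 and 20.2 to 164, 176 and 164 in H1703, 1.62-fold and 7.40-fold. HLA genes resemble each other closely, so their counts are uncertain. TAP2, a peptide transporter subunit, fell 2.07-fold in H1299 and rose 1.28-fold in H1703. The chaperones CALR and CANX also had the higher SAHA effect in H1703 (line differences 1.23 and 1.34). The 2 in the other direction were the immunoproteasome subunits PSMB9 (−1.53 ± 0.25), which overlaps TAP1 and PSMB8, and PSMB10 (−1.50).

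Genes of the endoplasmic reticulum and of amino acid stress divided. HSPA5, the main chaperone of the reticulum, was flat in H1299 (919, 893 and 882 against 847, 924 and 879 CPM) and rose 2.28-fold in H1703, from 1002, 968 and 919 to 2238, 2193 and 2142 CPM. SLC7A5, a transporter of large neutral amino acids, fell 1.34-fold in H1299 and 6.25-fold in H1703, where it went from 1769, 1820 and 1797 to 291, 306 and 264 CPM. Over the 30 genes of the unfolded protein and integrated stress responses 6 were higher in H1703 and 14 lower (median −0.53). The shares over all genes were 15.2% and 22.1%. The lower ones included the stress-induced inhibitor of mTOR signalling DDIT4 (−1.94 ± 0.15), the cystine transporter SLC7A11 (−1.89) and the serine synthesis enzymes PSAT1 (−0.94) and PHGDH (−0.86).

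Redox genes were called lower in H1703 more often than higher. Of 23 NRF2 targets, thioredoxins and metallothioneins, 11 were lower in H1703 and 3 higher (median −0.55). Over all genes the shares were 22.1% lower and 15.2% higher, with a median of −0.06. NQO1, a quinone reductase, rose from 213, 215 and 209 to 350, 354 and 400 CPM in H1299 and fell from 841, 826 and 839 to 244, 282 and 239 in H1703, 1.73-fold and 3.28-fold. GPX4, which repairs oxidised lipids, was 1 of the 3 in the other direction (0.92 ± 0.13).

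Adhesion and matrix lists differed in their counts, beside 15.2% higher and 22.1% lower over all genes. Of 17 collagens and collagen enzymes 4 were higher in H1703 and 5 lower, and of 19 metalloproteases and their inhibitors 8 were higher and 4 lower. Of 21 integrins and laminins 8 were higher in H1703 and 3 lower, and the integrin α6 gene ITGA6 moved like ITGA4 (−0.58 ± 0.07 and 1.21 ± 0.07) while ITGB3, integrin β3, did the reverse (1.61 ± 0.10 and −0.33 ± 0.09). Of 17 epithelial junction and keratin genes 10 were lower and 1 higher (median −0.88). JUP, the junction protein plakoglobin, rose 6.55-fold in H1299 (7.62, 7.39 and 6.00 to 42.6, 51.9 and 43.0 CPM) and fell 2.38-fold in H1703 (589, 551 and 561 to 247, 236 and 232 CPM). The gene in the other direction was PKP2, a desmosomal plakophilin (0.58 ± 0.17). Mesenchymal genes had 11 lower and 4 higher of 23, and contractile genes 11 lower and 1 higher of 26, or 2 higher without the third SAHA library of H1299, the second DMSO library of H1703 or the first SAHA library of H1703. TAGLN, an actin-binding protein of smooth muscle, had effects of 1.24 ± 0.18 and −2.07 ± 0.17.

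Signalling lists had more lower than higher calls in H1703, as did all genes (22.1% lower and 15.2% higher). Of 29 WNT pathway genes 15 were lower and 2 higher (5 higher with DESeq2 or median-ratio scaling), of 26 TGF-β and BMP genes 11 and 4, of 18 Notch genes 8 and 1, and of 17 growth factors for receptor kinases 9 and 2. The last count was 1 in 8 of the 12 fits that left out a library. TGFB2, a TGF-β ligand, rose 3.83-fold in H1299 (8.16, 9.34 and 8.32 to 33.9, 34.7 and 30.3 CPM) and fell 1.69-fold in H1703 (152, 161 and 154 to 94.9, 89.5 and 92.5 CPM). The inhibitory SMAD gene SMAD6 rose 7.71-fold in H1299 and fell 1.20-fold in H1703. NOTCH3 rose 8.03-fold in H1299, and its effect in H1703 did not pass (0.13 ± 0.12). PDGFB, a platelet-derived growth factor chain, rose 6.96-fold in H1299, and the H1703 effect was −0.30 ± 0.15. The receptor TGFBR2 was among those with the higher SAHA effect in H1703 (line difference 1.00 ± 0.09).

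**Figure D5:**
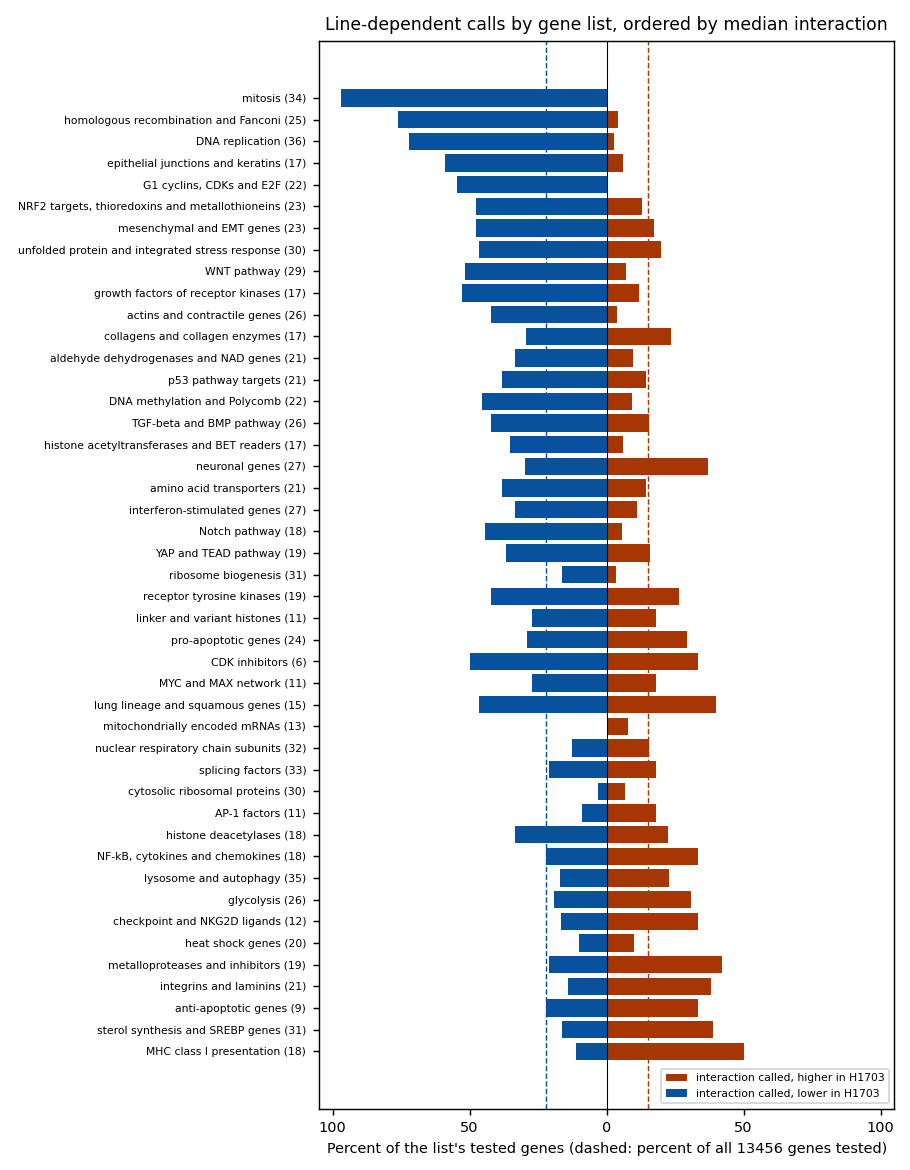
Percent of each list's tested genes (number in brackets) with the line difference called, to the left where the effect was lower in H1703 and to the right where it was higher, in the order of the list medians. The dashed lines mark the shares over all 13456 genes, 22.1% lower and 15.2% higher. Mitosis, recombination and replication stand at one end and MHC class I presentation at the other.

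Neuronal genes rose in most cases in both lines and differed in which genes rose further. Of 27, 24 rose in H1299 and 20 in H1703, against 29.7% and 28.5% of all genes under the rule. The line difference was higher in 10 and lower in 8, against 15.2% and 22.1%. Beside KIF5C and SYT11, the synaptic vesicle gene SYN1 (1.27) and the neuropeptide precursor VGF (2.41) rose further in H1703, while the neurofilament NEFL (−1.29) and the axonal adhesion gene CNTN1 (−2.03) were among the lower ones. The summed level of 6 neuroendocrine markers moved with SAHA as well, from 3.48 to 4.39 CPM with DMSO to 37 to 45.2 with SAHA in H1299 and from 7.83 to 9.28 to 191 to 212 in H1703. Most of that sum was SYP, a synaptic vesicle protein, while INSM1, a transcription factor that marks such cells, stayed below 1 CPM in every group mean. The part of such cells in the neuronal result was not tested.

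Of 31 sterol synthesis genes 12 were higher in H1703 and 5 lower (median 0.32), against 15.2% and 22.1% over all genes. HMGCS1, a synthase of the mevalonate pathway, rose in H1299 and fell in H1703 (0.89 ± 0.08 and −0.23 ± 0.08).

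Metabolic genes outside these pathways went both ways, beside 15.2% higher and 22.1% lower over all genes. Of 26 glycolysis genes 8 were higher in H1703 and 5 lower. Beside HK2 the lactate exporter SLC16A3 had the higher SAHA effect in H1703 (line difference 1.33). PFKFB3, which makes an activator of glycolysis, fell in H1703 alone (−1.88 ± 0.10). Of 21 aldehyde dehydrogenase and NAD genes 2 were higher and 7 lower, and 1 was higher without any 1 of the DMSO libraries of H1299, without the first or second DMSO library of H1703 or without its first SAHA library. ALDH2, the mitochondrial acetaldehyde dehydrogenase, rose from 3.87, 5.38 and 4.13 to 13.7, 15 and 11.9 CPM in H1299 and fell from 233, 210 and 226 to 155, 156 and 146 in H1703, a line difference of −2.14 ± 0.16. Of 21 amino acid transporters 3 were higher and 8 lower, and SLC1A3, a glutamate transporter, rose in H1299 and fell in H1703 (log2 effects 2.10 ± 0.16 and −1.5 ± 0.12). Lysosome and autophagy genes had 8 higher and 6 lower of 35, with the cathepsin CTSB at 1.35 ± 0.11 and the lysosomal transcription factor gene TFEB at −2.20 ± 0.30.

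Receptors and their downstream factors were split as well, beside 15.2% higher and 22.1% lower over all genes. Of 19 receptor tyrosine kinases 5 were higher in H1703 and 8 lower. EGFR and MET had the higher SAHA effect in H1703 (line differences 1.03 and 0.91). The ephrin receptor gene EPHB2 rose 3.66-fold in H1299 (10.7, 11.6 and 11.3 to 37.9, 46.2 and 38.9 CPM) and fell in H1703 (log2 effect −0.59 ± 0.08). Of 19 YAP and TEAD pathway genes 3 were higher and 7 lower. Both classical targets ANKRD1 and CTGF rose in each line and differed in which line rose more. The log2 effect of CTGF was 3.69 ± 0.08 in H1299 and 4.87 ± 0.09 in H1703, and ANKRD1 rose 66.2-fold in H1299 and 15.3-fold in H1703. ANKRD1 went from 31.8, 31.4 and 34.7 to 2178, 1958 and 2349 CPM in H1299 and from 3.83, 3.62 and 3.85 to 63.5, 54.6 and 55.2 in H1703. Of 11 AP-1 genes 2 were higher and 1 lower, the latter FOSL2 (−1.30 ± 0.16). 2 were lower without the second DMSO library of H1299 or the first SAHA library of H1703.

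Chromatin, interferon and p53 lists were not alike, beside 22.1% lower and 15.2% higher over all genes. Of 11 linker and variant histones 2 were higher in H1703 and 3 lower, and 1 was higher in 9 of the 12 fits that left out a library. Of 22 DNA methylation and Polycomb genes 10 were lower and 2 higher, and the Polycomb reader genes CBX8 and CBX7 had line differences of opposite sign (−1.5 ± 0.16 and 0.91 ± 0.15), although CBX7 rose in each line. Without the third DMSO library of H1299 or the first SAHA library of H1703, 1 of the 22 was higher. Of 17 acetyltransferase and BET reader genes 6 were lower and 1 higher, and 3 were lower with median-ratio scaling. Of 27 interferon-stimulated genes 9 were lower and 3 higher, and 5 were higher with that scaling, with DESeq2 or without the first SAHA library of H1299. IFIH1, a sensor of double-stranded RNA, was among the higher, as it fell in H1299 alone (−1.19 ± 0.12). Of 21 p53 targets 8 were lower and 3 higher, and 1 was higher without the second DMSO library of H1703. The polo-like kinase genes PLK2 and PLK3 among them rose in each line, with line differences of opposite sign (−1.76 ± 0.10 and 0.88 ± 0.19).

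Several lists showed few line differences. Of 13 mitochondrially encoded mRNAs, all of which rose in both lines, 1 had the difference called (7.69%), MT-ATP8 at 0.35 ± 0.12, and that call was lost in 7 of the 12 fits that left out a library. Of 30 cytosolic ribosomal protein genes 2 were higher and 1 lower (10%). Of 31 ribosome biogenesis genes 1 was higher and 5 lower (19.4%), and of 20 heat shock genes 2 and 2 (20%). Of 32 nuclear respiratory chain genes 5 were higher and 4 lower (28.1%), or 2 lower without the third DMSO library of H1299. All of these shares were below the 37.4% over all genes, and a difference below the threshold is not shown to be absent.

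Of 18 deacetylase genes 4 were higher in H1703 and 6 lower, against 15.2% and 22.1% over all genes. HDAC1 and HDAC2, the class I enzymes of nuclear repressor complexes, had line differences of 0.07 and 0.09 that did not pass. HDAC3, the catalytic subunit of the nuclear receptor corepressor complexes, had the higher SAHA effect in H1703 (line difference 1.07). HDAC7, a class IIa enzyme, fell in both lines and further in H1703 (−0.55 ± 0.12 and −1.54 ± 0.13). SIRT2, an NAD-dependent deacetylase that SAHA does not block, had an effect of 0.05 ± 0.10 in H1299 and rose 2.04-fold in H1703.

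In other genes the line difference was called and so was the effect of 1 line alone. BIRC3, an inhibitor of apoptosis induced by NF-κB, rose 7.65-fold in H1703 (113, 121 and 113 to 840, 868 and 945 CPM), while its groups overlapped in H1299 (177, 161 and 184 against 239, 148 and 187 CPM). ICAM1, a leukocyte adhesion receptor, rose 4.67-fold in H1703 and had −0.09 ± 0.11 in H1299. HK2, the inducible hexokinase, rose from 4.02, 3.33 and 3.30 to 18.3, 18.4 and 19.9 CPM in H1703, still below the 48.1, 49.2 and 48.6 CPM of H1299 with SAHA. PLOD2, a collagen lysyl hydroxylase, rose 4.65-fold in H1703.

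COL1A1, the α1 chain of type I collagen, rose 28.2-fold in H1299, from 1.63, 0.828 and 1.58 to 35.9, 46.0 and 33.0 CPM. H1703 held 65.4, 58.0 and 67.0 CPM with DMSO and 68.6, 67.4 and 58.5 with SAHA, groups that overlapped. SOX2, a factor of stem cells and of squamous tumours, fell 7.59-fold in H1703 (38.4, 39.1 and 42.6 to 5.60, 6.10 and 4.08 CPM), to the level of H1299, where the effect was −0.22 ± 0.18. CEBPA, a factor of lung epithelial differentiation, rose 3.74-fold in H1299 and fell 2.15-fold in H1703. Of 15 tested lung lineage and squamous genes 6 were higher and 7 lower, against 15.2% and 22.1% over all genes. Regulators of apoptosis differed by member, and the same shares stand beside their counts. 7 of 24 pro-apoptotic genes were higher and 7 lower, and 3 of 9 anti-apoptotic genes were higher and 2 lower. BIK rose 3.79-fold in H1299 and 20.7-fold in H1703 (line difference 2.45 ± 0.29), and BMF 20.5-fold and 3.78-fold (−2.44 ± 0.41). With DMSO BIK averaged only 1.69 CPM in H1299 and 1.12 in H1703, and folds from such levels are uncertain.

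The called genes were spread over the genome and over gene classes. By chromosome, the share lower in H1703 ran up to 28.8% on chromosome 22 (95 of 330 genes). The share higher reached 21.9% on chromosome 6 (149 of 679) and 21% on chromosome 18 (41 of 195). Protein-coding genes were called higher in 16.2% and lower in 23%. Antisense genes were called in 6.31% and 20.4% and lincRNAs in 8.97% and 25.6%, the former uncertain without strand. With the genes in 5 equal groups by level under DMSO, the highest group had 20.1% higher and 19.7% lower, and the lowest 12.3% and 22.3%. In 5 equal groups by gene length as deposited the shares were 12.4% to 16.6% higher and 19.9% to 24.0% lower. These shares are descriptions without a test.

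Some genes lay near the edge of the rule, on unscaled CPM. Just inside, beside PDE3A, were SYNC (1.002 CPM in H1299, line difference −3.63) and PPP1R2B (1.002 CPM in H1703, 0.05). Just outside were AC020915.5 (0.9976 CPM in H1299, 6.72), CCDC146 (0.9955 CPM, −0.21) and EPHA4 (0.9945 CPM, −2.39). The 1 gene that met the rule and was not tested was AC010132.3, with 911 of its counts in 1 H1299 DMSO library and 386 in 1 H1703 DMSO library. MYC, a growth-promoting transcription factor, was read unevenly: 7.25, 6.03 and 77.4 CPM in the DMSO libraries of H1299 and 10.4, 9.08 and 10.3 in its SAHA libraries, against 34.8, 4.49 and 29.6 and then 7.19, 77.0 and 6.51 in those of H1703. Its line difference of 2.02 ± 1.86 did not pass (adjusted p = 0.45).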

How the data were processed

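Polyadenylated RNA of 12 libraries was sequenced; group and replicate came from the sample titles and the treatment labels. Per the file headers, the authors deposited 1 table per line with raw counts and FPKM values per gene. Per the submitters' processing notes, edgeR 3.30.3, StringTie 1.3.3b, HISAT2 2.1.0, fastp, FastQC 0.11.9 and GRCh38 were used, in roles that the sources do not state. The labels name both a directional and an un-stranded library. The deposited FPKM values served only as a check: counts over total and length gave 100% of 201185 values (counts of 10 or more) within 1%. Columns marked NC are the DMSO samples, the only other group of each line.

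The tables were joined by gene, and all 19105 genes kept by filterByExpr (minimum count 10, minimum total 15) were fitted in 4 groups with edgeR 4.0.16 in R 4.3.3 (TMM, robust quasi-likelihood, Benjamini-Hochberg over all genes tested, called at 0.05). SE is the effect over the root of F, and for genes of like response intervals combine the SEs of both lines. CPM of the rule and of markers use library totals alone, and per-library CPM of named genes also the TMM factors (0.886 to 1.122). Alternatives used DESeq2 1.42.0, limma 3.58.1, other scalings, other CPM limits and each library left out. The fit was also run on counts simulated from its own estimates, which does not test the scaling or the calls made here. Replicate numbers are labelled batch; same-numbered DMSO and SAHA libraries of a line correlated by −0.03 to 0.03 in their deviations.

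Members, 46 gene lists and the naming rule were chosen with earlier results of these data known. The rule took the largest line differences by direction and class among protein-coding genes at a mean log2 CPM of 3 or more (for genes of opposite movement and for the same-direction classes only where SAHA and DMSO libraries did not overlap in either line), the 2 strongest members per list with 1 of the other sign, like responders at 4-fold, and 7 fixed genes, of which TXNIP was no member; other list members named were chosen after their values were seen. Some genes that the rule selected are not reported here.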

Additional observations from a re-analysis of the deposited data

Results flagged for a closer look

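The lines gave different SAHA effects by the interaction test in 2051 genes with the higher effect in H1703 and 2976 with the lower. Among them 402 genes rose in H1299 and fell in H1703, and 252 did the reverse. The 16 genes of opposite movement shown by library were singled out by the same test of the line difference (log2, H1703 minus H1299). Those that rose in H1299 and fell in H1703 were CLSTN3 (−6.20), CD24 (−5.98), MMP24 (−5.17), SAMD11 (−4.91), GJA1 (−4.91), ARHGEF16 (−4.65), NRCAM (−4.33) and PDE3A (−4.31). Those that fell in H1299 and rose in H1703 were NLRP1 (4.23), FCGBP (3.85), CD59 (3.71), ITGA4 (3.01), FLT4 (2.98), KRT15 (2.98), SCARF2 (2.87) and CASP4 (2.83). By the rule that chose them, in each of the 16 genes the 3 SAHA libraries lay on one side of the 3 DMSO libraries in either line. Groups of 3 are too small for a test of single outlying libraries.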

How the results depend on the processing

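Of the 147 genes named by rule, 142 kept their side of the threshold in all 19 other fits. None of those called in the main fit changed sign. Of 2793 values, 8 lost the call and 7 gained it, in E2F5, RFX5, MT-ATP8, MT-CO2 and TXNIP. Some genes that were not called did change sign, such as MYC (−0.17 to 2.50) and SUMO3 (−0.05 to 0.05). Most of the 147 genes were chosen for a strong line difference in the main fit, so that choice favoured their stability. Over all 5027 calls, 86.1% to 91.8% remained with 1 library left out. With 1 library left out, genes higher in H1703 numbered 1749 to 2124 and lower 2652 to 2928; genes falling further in H1299 ranged from 152 (without the first DMSO library of H1703) to 328, and genes called in neither line from 32 (without the third SAHA library of H1703) to 59. With members at 5 CPM or more, 344 genes were at least 2-fold higher, 856 at least 2-fold lower, and 283 rose further in H1299. With the replicate block 1860 genes were higher and 2705 lower, 4412 (87.8%) of the 5027 calls remained, and no call of a named gene changed. The share of calls that were higher was 40.8% and rose to 48.3% with DESeq2 or its size factors, which moved the median difference from −0.06 to 0.00 and left 344 and 319 (DESeq2) or 345 and 313 (size factors) genes of opposite movement for 402 and 252. List counts moved by over 1.5 times in 98 of 1748 values, nearly all from counts under 3. Depth limited genes near 1 CPM, such as SPC25 in H1703 with SAHA.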
